A study of Mus musculus with 118 samples.

Results

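The genes described here are the 5 that encode the kainate receptor subunits, Grik1 to Grik5, out of 23998 gene symbols in the counts table. The family was taken whole, but it was chosen by measured values of these same cells, above all the difference of Grik2 between S1 and V1 in L4. That difference is therefore given as a description and supports nothing further. All 5 symbols were found, each in 1 entry. A filter of at least 32 counts in at least 10 kept cells was passed by Grik1 (73 cells), Grik2 (76 cells), Grik3 (55 cells) and Grik5 (53 cells), and not by Grik4 (2 cells).

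The RNA came from single SOM+ neurons of adult SOM-Cre/Ai9 mice, recorded with a patch pipette through which the cell content was then drawn and sequenced (Patch-seq, with Smart-seq2 libraries). All groups share that genotype: Cre is driven from the Sst locus and switches on tdTomato for good, so a labelled cell expresses Sst or once did. The cells lay in L4 and L5 of the primary visual cortex (V1) and of the primary somatosensory cortex (S1), and no group received a treatment. A cell was kept if it had 1500 or more detected genes, an Sst read and a Slc17a7 count that did not exceed those of Gad1 and Gad2 together. That left 42 of 44 V1 L4 cells, 34 of 39 S1 L4 cells, 17 of 19 V1 L5 cells and 16 of 16 S1 L5 cells. Because the animals are not named, the cells of an area and layer form 1 sample, nothing was tested over cells, and a difference was checked by its repeat within the 9 dates found in the labels. The study names fewer mice than there are dates, so the dates cannot all be separate animals, and the SD over dates is not a spread between animals.

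Kept cells had between 97904 and 3295232 counts, with group medians between 1015272.5 and 1199868.5. Levels of 1 gene are given as log2(CPM + 1), where CPM scales the counts of every cell to a common total, and different genes are set side by side only in RPKM, which also divides by gene length. An Sst read was a condition for keeping a cell, and 4 of the 39 S1 L4 cells had none. Of the markers of these interneurons on which no cell was required to have a read, Gad1 was read in all kept cells, and Gad2 was missed in 2 of them, Slc32a1 in 8, Sox6 in 14 and Lhx6 in 21. Reads of other cell types also differed between areas. The 5 oligodendrocyte genes summed to 240 CPM in V1 L4, where Mag was at 0, and to 1088 CPM in S1 L4 (median 70.0 and 628 CPM per cell, with ranges of 0 to 3717 and 0 to 9510). They reached 218 CPM among V1 and 696 CPM among S1 cells of L5. Pvalb stood at 11.4 CPM in V1 L4, compared with 41.8 CPM in the S1 cells of that layer.

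Kainate receptors are glutamate-gated cation channels built as tetramers, and they act both at synapses and on nerve terminals, where they adjust transmitter release. The subunits fall into classes. Those of Grik1, Grik2 and Grik3 (GluK1 to GluK3) can form a working channel by themselves, whereas those of Grik4 and Grik5 (GluK4 and GluK5) bind glutamate more tightly but reach the surface only together with a partner of the first class. In cortex and hippocampus Grik1 is known mainly from interneurons, while Grik2 and Grik5 are read widely. Neto1 and Neto2 are auxiliary proteins that alter how the channels open and close.

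The genes lie apart in the genome. In GENCODE M21 on GRCm38, Grik1 spans chr16:87895900-88290265 on the minus strand, Grik2 chr10:49094833-49788766 on the minus strand, Grik3 chr4:125490700-125714173 on the plus strand, Grik4 chr9:42518135-42944493 on the minus strand and Grik5 chr7:25009849-25072346 on the minus strand. No gene on the opposite strand overlaps them. The coding sequences show the classes: translated in full, Grik1 and Grik2 share 78.4% of 901 aligned residues, Grik2 and Grik3 79.6% of 903, Grik1 and Grik3 73.4% of 896 and Grik4 and Grik5 70.0% of 948, while every pair across the classes lies between 43.2% and 46.0%. Even so, no stretch of 75 bases, the read length, is common to the transcripts of any 2 genes, and the longest shared run is 46 bases, between Grik2 and Grik3.

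The lines below give 60 coding bases from the pore loop of each subunit, 5′ to 3′ on the coding strand, to show how alike the stretch is in all 5 genes and where they part. Capitals mark the CAG codon for glutamine at the Q/R site, which in Grik1 and Grik2 transcripts is known to be recoded to arginine by RNA editing. The codon stands at residue 636 of Grik1, 621 of Grik2, 623 of Grik3, 606 of Grik4 and 605 of Grik5. Counts per gene cannot show whether it was edited. In order, the stretches lie at chr16:87936066-87940547 (exons 13 and 14), chr10:49240747-49244334 (exons 12 and 13), chr4:125691204-125694011 (exons 12 and 13), chr9:42547569-42547628 (exon 14) and chr7:25022443-25022502 (exon 15), and the first 3 ranges include an intron. Grik1 and Grik2 match at 49 of the 60 bases, Grik4 and Grik5 at 43, and Grik2 and Grik4 at 32.
Grik1: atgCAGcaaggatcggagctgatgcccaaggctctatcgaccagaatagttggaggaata
Grik2: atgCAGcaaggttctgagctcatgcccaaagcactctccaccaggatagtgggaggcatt
Grik3: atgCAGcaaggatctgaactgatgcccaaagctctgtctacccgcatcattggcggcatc
Grik4: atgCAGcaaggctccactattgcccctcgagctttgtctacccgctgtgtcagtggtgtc
Grik5: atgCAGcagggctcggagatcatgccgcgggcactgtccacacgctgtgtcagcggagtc

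Among the subunits that can form channels alone, Grik2 was the most widely read in V1 L4 and the least in S1 L4. At least 1 read was found in 40 of 42 V1 L4 cells (95.2%, 95% Clopper-Pearson interval 83.8% to 99.4%) and in 22 of 34 S1 L4 cells (64.7%, 46.5% to 80.3%). In L5 it was read in 15 of 17 V1 cells (88.2%, 63.6% to 98.5%) and in 14 of 16 S1 cells (87.5%, 61.7% to 98.4%). The share was lowest in the S1 L4 cells. The intervals cover counting error only and treat cells as independent, although those of a group form 1 sample. With every cell thinned to 250000 reads the 2 L4 shares were 95.2% and 58.8%.

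Grik1 detection was nearly equal between areas in L4, with 32 of 42 V1 cells (76.2%, 60.5% to 87.9%) and 26 of 34 S1 cells (76.5%, 58.8% to 89.3%). It was read in 14 of 17 V1 L5 cells (82.4%, 56.6% to 96.2%) and 15 of 16 S1 L5 cells (93.8%, 69.8% to 99.8%). Grik3 was read in 31 of 42 V1 L4 cells (73.8%, 58.0% to 86.1%) and 23 of 34 S1 L4 cells (67.6%, 49.5% to 82.6%). In L5 its share was 64.7% in V1 (11 of 17 cells, 38.3% to 85.8%) and 43.8% in S1 (7 of 16 cells, 19.8% to 70.1%). Over cells of every date the L5 shares of Grik3 were thus the lower ones, with overlapping intervals. When L4 was limited to the 4 label dates that hold L5 cells, V1 went the other way. Its L4 cells then had a Grik3 read in 4 of 7, a smaller share than its L5 cells. For S1 the L4 count on those dates was 10 of 12, so its L5 share stayed lower.

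Grik5, a partner subunit, was read in a similar share of every group, between 12 of 16 S1 L5 cells and 14 of 17 V1 L5 cells. Grik4, the other partner subunit, was nearly absent. It was read in 2 of 42 V1 L4 cells, with 33 counts in 1 and a single count in the other, in 1 of 34 S1 L4 cells with 1 count, in 0 of 17 V1 L5 cells, which allows a share of up to 17.6% if 3 cells are taken as the limit and up to 19.5% by the Clopper-Pearson interval, and in 1 of 16 S1 L5 cells with 91 counts. Over all kept cells that is 4 cells (3.67%, 1.01% to 9.13%). The counts table can hold this gene at a high level, since the 1 cell left out for its Slc17a7 reads had 170 Grik4 counts.

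**Figure D1:**
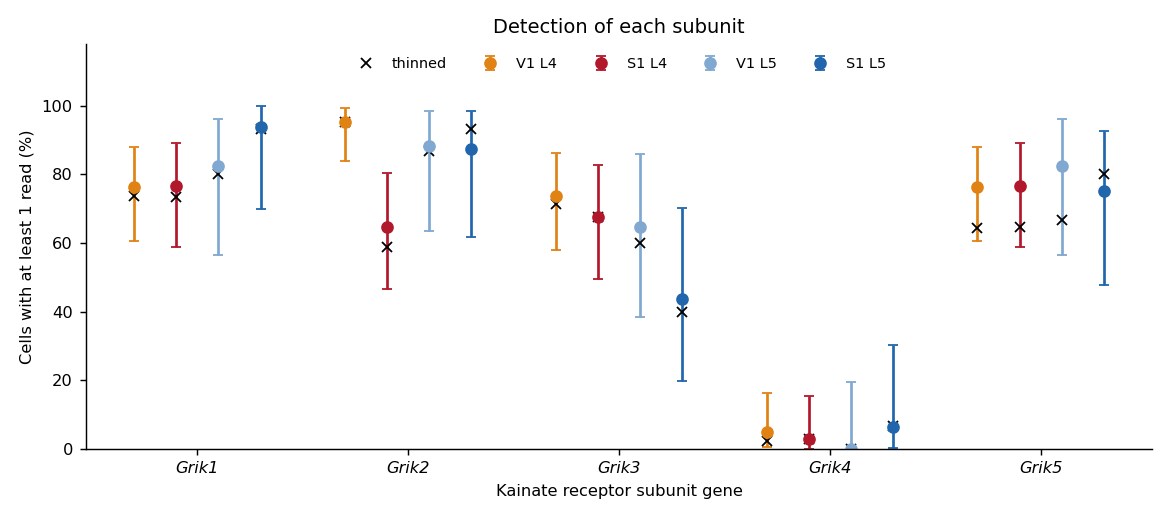
Percent of kept cells with at least 1 read (y axis) of each subunit gene (x axis) in V1 L4 (42 cells), S1 L4 (34), V1 L5 (17) and S1 L5 (16). Points with bars are shares with 95% Clopper-Pearson intervals and crosses the shares after thinning to 250000 reads; Grik2 in S1 L4 lies below the other groups at 64.7%, and Grik4 lies at 6.25% or under in all groups.

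The level of Grik2 separated the areas in L4. In V1 L4 it ran from 0 to 9.97 on the log2(CPM + 1) scale with a median of 7.74, and in S1 L4 from 0 to 8.68 with a median of 4.20. The ranges overlapped, but only 5 of 34 S1 cells lay above the V1 median and only 5 of 42 V1 cells below the S1 median. The means were 7.02 ± 2.60 (SD over cells, n = 42) and 3.74 ± 3.31 (n = 34), a difference of -3.28. Pooled over cells, Grik2 stood at 249 CPM in V1 L4 (95% Poisson interval 245 to 254) and 73.8 CPM in S1 L4 (71.4 to 76.3), a ratio of 3.38. These intervals treat amplified reads as independent and leave out the spread over cells, dates and animals, so they are far too narrow for the area difference. In cells with a read of it, the means were 7.37 and 5.78, a difference of -1.60, beside that in detection.

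The Grik2 difference held in each of the 5 label dates with at least 2 cells of both areas. It was -3.79, -5.76, -3.71, -2.95 and -3.22 on dates 2, 3, 5, 7 and 8 (SD over dates 1.10). Date 4 went the other way, with 1 V1 cell at 1.99 and 3 S1 cells between 6.25 and 8.13, and was not counted because of the lone V1 cell. A share of 0.0543% of the 9201 genes tested, Grik2 included, had a difference as low or lower. This rank and the signs by date come from the values by which the family was chosen, and are given as a description only. Among cells with under 100 CPM of the oligodendrocyte genes, a choice made after the data were seen, the difference was -3.88 (9 S1 and 24 V1 cells, lower in 2 of 2 dates), and what part the oligodendrocyte reads have in the difference over all cells was not tested.

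The other subunits did not separate the areas in L4. Grik1 ran from 0 to 9.35 in V1 (median 5.74) and from 0 to 10.89 in S1 (median 5.98), a difference of means of 0.19 with an SD over dates of 4.01. Grik3 ran from 0 to 8.36 in V1 (median 5.56) and from 0 to 9.22 in S1 (median 5.11), a difference of -0.40 with an SD of 2.61. Grik5 ran from 0 to 8.07 in V1 (median 4.98) and from 0 to 7.60 in S1 (median 4.84), a difference of 0.04 with an SD of 3.28. Each of the 3 genes was higher in S1 on some dates and lower on others. A gene was called when its means differed by at least 1 with 1 sign in every date with at least 2 cells per group: by this rule 1 of the 4 subunits tested in L4 was called, beside 3.20% of all genes tested, a count that the choice of the genes used and that is given for completeness.

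For Grik1 and Grik3 the sign differed between the earlier and the later label dates, on few cells. In label dates 1 to 6 the S1 minus V1 difference in L4 was 1.90 for Grik1 and 1.45 for Grik3, each higher in S1 on all 3 dates counted. In dates 7 to 9 it was -1.38 for Grik1 and -2.11 for Grik3, each lower in S1 on both dates counted. By date, Grik1 differed by 0.13, 3.75 and 5.38 on dates 2, 3 and 5 and by -1.16 and -4.72 on dates 7 and 8. On the same dates Grik3 differed by 1.31, 3.06, 2.59, -0.13 and -3.44. Date 8 held 2 S1 cells, 1 of them without a read of any subunit. The 7 S1 cells of date 9, which had no V1 cell, enter the pooled differences only. A link of sign and period was not tested. Grik2 gave -3.33 and -3.21 in the 2 periods. With only 3 and 2 dates, 1123 and 1960 genes met the rule in these subsets, compared with 294 over all dates.

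**Figure D2:**
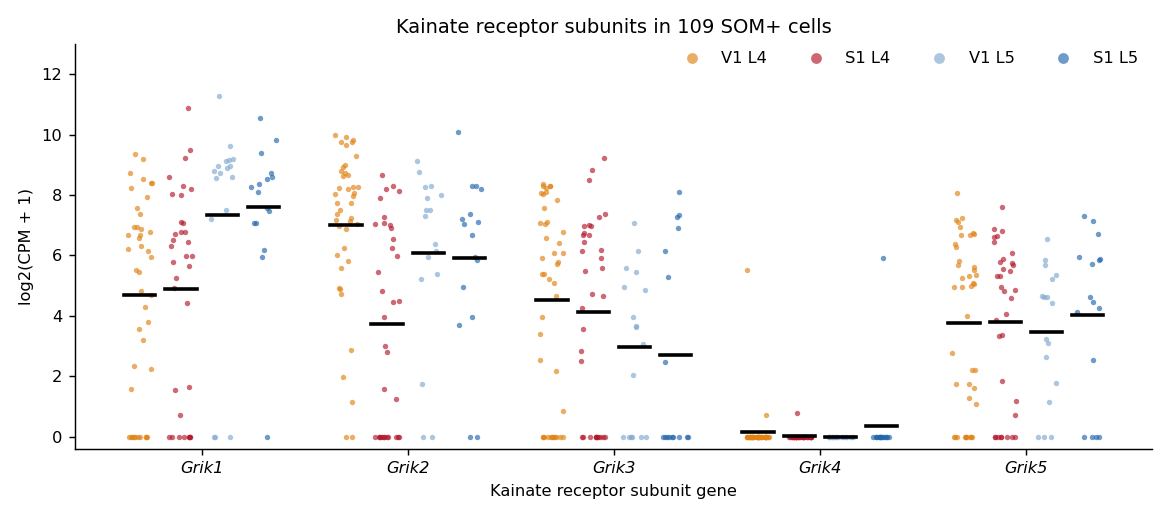
log2(CPM + 1) (y axis) of the 5 subunit genes (x axis) in the kept cells, 1 point per cell, coloured by area and layer; black bars are means. Grik2 in S1 L4 has a mean of 3.74 against 7.02 in V1 L4, the Grik1 means of L5 (7.33 and 7.60) lie above those of L4 (4.70 and 4.89), and Grik4 is at 0 in nearly every cell.

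**Figure D3:**
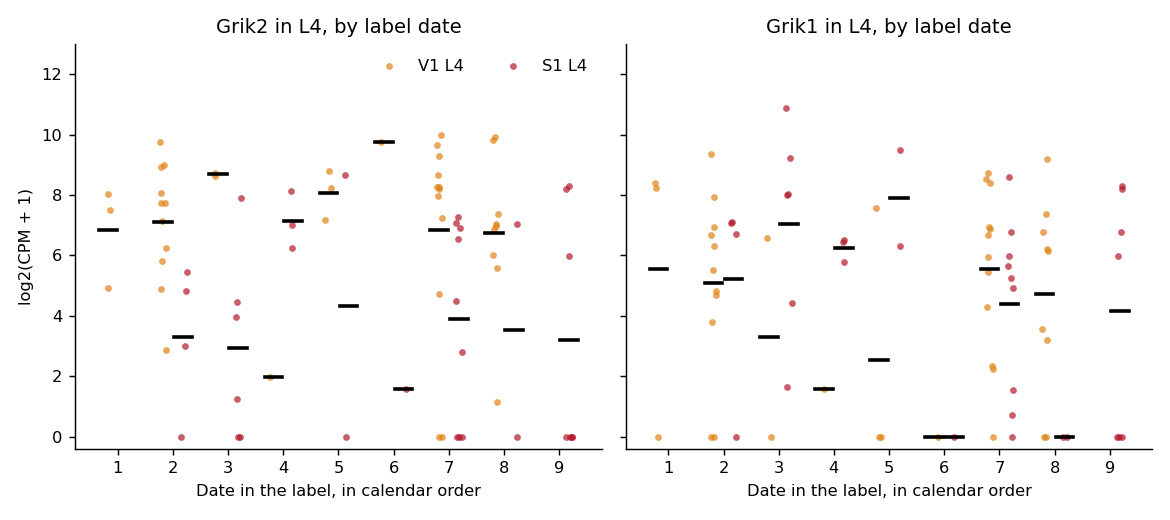
log2(CPM + 1) (y axis) of Grik2 (left) and Grik1 (right) in L4 cells by label date (x axis, 9 dates in calendar order), 1 point per cell, with V1 and S1 side by side and black bars at the mean of each date. For Grik2 the S1 bar lies below the V1 bar on dates 2, 3, 5, 6, 7 and 8 and above it on date 4, while Grik1 changes sides.

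In L5 no subunit met the rule between areas (0 of 4 tested, beside 12.7% of all genes tested). Grik1 ran from 0 to 11.28 in V1 (median 8.80) and from 0 to 10.56 in S1 (median 8.17), and its means of 7.33 and 7.60 differed by 0.27 (SD over 4 dates 1.06). Grik2 had means of 6.09 in V1 and 5.91 in S1, a difference of -0.17 (SD 1.80), lower in S1 on 2 of 4 dates. Whether the area difference of Grik2 itself differs between L4 and L5 was not tested. Grik3 differed by -0.25 (SD 1.95) and Grik5 by 0.57 (SD 1.25).

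Between layers, Grik1 had the largest difference of the subunits tested in V1, but not in S1. For this comparison L4 cells were taken only from the 4 label dates that hold L5 cells, which left 7 V1 and 12 S1 L4 cells. In V1, Grik1 was read in 3 of 7 L4 cells (0 to 7.57, median 0) and in 14 of 17 L5 cells (0 to 11.28, median 8.80). All 7 L4 cells lay below the L5 median. The means of 2.25 and 7.33 differed by 5.08, with 3.60 and 6.13 in the 2 dates that could be counted. With the L4 cells of every date the difference was 2.63, since the mean of all 42 V1 L4 cells was 4.70.

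In S1, where 11 of 12 L4 cells (0 to 10.89, median 6.47) and 15 of 16 L5 cells (0 to 10.56, median 8.17) had a Grik1 read, the difference was 1.21 and did not meet the rule, being 1.53, 0.49 and -0.07 in 3 dates. Without date 5 it met the rule at 1.40, and with L4 cells of every date it was 2.71. Pooled Grik1 was 407 CPM in V1 L5 and 403 CPM in its S1 counterpart. On the shared dates the L4 cells had 58.9 CPM in V1 and 283 CPM in S1, so that L5 stood 6.92 and 1.42 times as high. Over the L4 cells of every date the values were 100.03 CPM in V1 and 154.2 CPM in S1. Of the 7405 Grik1 counts in the S1 L4 cells of every date, 1 cell of date 3 held 2048. Both pooled S1 L4 values, and the ratio of 1.42, thus rest heavily on that cell.

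Grik2 and Grik5 met the rule in V1 with lower values in L5. Grik2 ran from 1.99 to 9.77 in the 7 L4 cells (median 8.64) and from 0 to 9.12 in the 17 L5 cells (median 7.30), a difference of means of -1.52, made up of -4.00 on date 3 and -0.38 on date 5. Without date 3 it was -0.51 and no longer met the rule, nor did it with L4 cells of every date (-0.93). Grik5 ran from 0 to 6.95 in L4 (median 5.52) and from 0 to 6.54 in L5 (median 4.43), a difference of -1.13 that became 0.09 without date 5 and -0.98 without date 4. In all, 3 of the 3 subunits tested in V1 met the rule, beside 26.8% of all genes tested, where 2 dates had to share a sign. The filter asked for 10 cells, more than the 7 L4 cells, so no gene could pass without L5 cells. Grik1 had at least 32 counts in 13 V1 L5 cells, enough to pass by that layer alone.

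In S1 the subunit that met the rule was Grik3, 1 of 4 tested, beside 16.9% of all genes. It was read in 10 of 12 L4 cells (0 to 8.51, median 6.28) and in 7 of 16 L5 cells (0 to 8.09, median 0). The difference of means was -2.65, with -4.03, -0.14 and -4.72 in the 3 dates (SD 2.47). Cells with a read hardly differed, at a mean of 6.44 in L4 and 6.22 in L5, and the groups differed in how many cells had a read. Without date 3 the difference was -1.49, and the rule was no longer met on RPKM values (-1.44), with a pseudocount of 10 (-1.36) or in all cells with at least 1500 detected genes (-1.71). Grik2 was 1.82 higher in S1 L5 without meeting the rule, which it met without date 4 (2.74), and Grik5 differed by -0.39, meeting the rule without date 5 (-1.27). In V1, Grik3 did not pass the filter and had means of 3.42 in L4 and 2.97 in L5. All L5 cells come from 4 dates. Pooled microglia genes stood at 197 CPM in V1 L4 and 415 CPM in V1 L5 but at 147.98 and 100.9 CPM in S1, while their medians per cell were lower in L5 in both areas (83.0 and 10.9 CPM in V1, 106.4 and 7.58 CPM in S1). The part of these and of the oligodendrocyte reads in the layer differences was not tested.

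Ordered by mean log2(CPM + 1) over kept cells of every date, Grik1 ran from S1 L5 (7.60) over V1 L5 (7.33) and S1 L4 (4.89) to V1 L4 (4.70). Grik2 ran from V1 L4 (7.02) over V1 L5 (6.09) and S1 L5 (5.91) to S1 L4 (3.74). Grik3 ran from V1 L4 (4.53) and S1 L4 (4.13) to V1 L5 (2.97) and S1 L5 (2.72), and Grik5 lay between 4.04 in S1 L5 and 3.46 in V1 L5. The areas of 1 layer, which are neighbours in the orders of Grik1 and Grik3 and include the V1 and S1 L5 pair of Grik2, differed by less than the SD over dates. These orders do not match the layers by date. On the 4 label dates that hold L5 cells, the L4 means of Grik3 were 3.42 in V1 and 5.37 in S1, so that S1 came first. Those of Grik5 were 4.59 and 4.43, both above L5. Those of Grik1 were 2.25 and 6.40, and those of Grik2 7.61 and 4.10, with their orders unchanged.

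Set beside each other per length, the subunits changed rank between groups. In V1 L4 the mean log2(RPKM + 1) was 5.00 for Grik2, 3.41 for Grik1, 2.52 for Grik5, 2.47 for Grik3 and 0.09 for Grik4. In S1 L4 Grik1 led with 3.63, and Grik5 (2.53), Grik2 (2.46) and Grik3 (2.21) lay close together. In L5 Grik1 led in both areas, with 5.83 in V1 and 5.93 in S1, over Grik2 with 4.21 and 4.06. Grik5 (2.13 and 2.72) and Grik3 (1.29 and 1.496) followed.

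The mix within single cells gave the same orders, except that Grik2 preceded Grik5 in S1 L4 (21.8% and 21.2%). As a share of the summed RPKM of the 5 subunits in a cell, Grik2 averaged 49.8% in V1 L4 (SD over dates 17.9), where it was the largest subunit in 23 of 42 cells. In S1 L4 its share was 21.8% (SD 12.6) and it was the largest in 8 of 32 cells, while Grik1 had 39.8% (SD 17.03) and was the largest in 13. The Grik2 share was lower in S1 on 4 of 4 dates and that of Grik3 higher on 4 of 4 dates (17.3% against 10.99%). Only dates with at least 2 cells of both areas with a subunit read were counted, which left out dates 4, 6 and 8. Date 4 reversed both signs: its lone V1 cell had 2.16% Grik2 and 26.1% Grik3, and every S1 cell had more Grik2 and less Grik3. On date 6 the lone cell of each area held Grik2 only. On date 8 the only S1 cell with a read had 51.6% Grik2, above most V1 cells, and 15.4% Grik3, inside their range. The shares of 1 cell add up to the whole, so a lower share of Grik2 has to raise those of others.

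In L5 Grik1 was the largest subunit in 13 of 17 V1 cells and 12 of 16 S1 cells, with mean shares of 62.8% (SD over dates 2.99) and 60.6% (SD 20.7). Grik2 followed with 31.2% and 22.5%, Grik5 with 3.98% and 8.45% and Grik3 with 1.99% and 6.46%. Single cells were often dominated by 1 gene: Grik1 or Grik2 alone took over 50% in 30 of 42 V1 L4 cells, 18 of 32 S1 L4 cells, 17 of 17 V1 L5 cells and 14 of 16 S1 L5 cells. In S1 L4 the leading gene was more varied, with Grik5 the largest in 6 cells and Grik3 in 5 of 32. Some of the cells counted here were near the floor. Grik5 led on 2 counts in 1 S1 L4 cell and on 9 in another, and Grik3 on 9 in 1. With over 50%, Grik2 led on 1 count in 1 S1 L4 and 1 V1 L5 cell and on 2 counts in 1 V1 L4 cell.

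**Figure D4:**
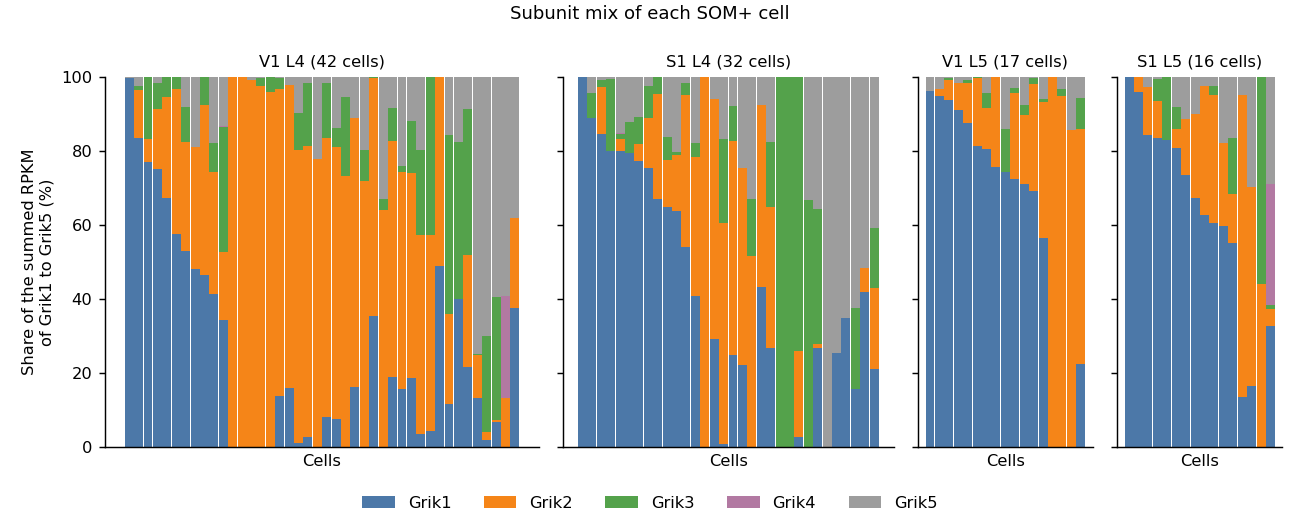
Share of each subunit in the summed RPKM of Grik1 to Grik5 (y axis, percent) for every kept cell with a read of any (x axis, 1 bar per cell), by group, sorted by the largest subunit. Grik2 is the largest in 23 of 42 cells of V1 L4 but 8 of 32 in S1 L4, and Grik1 in 13 of 17 V1 L5 and 12 of 16 S1 L5 cells.

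Most cells carried reads of several subunits. The mean number was 3.26 ± 0.89 (SD over cells) for V1 L4 and 3.18 ± 0.95 for V1 L5, and 2.88 ± 1.32 for S1 L4 and 3.06 ± 0.998 for S1 L5. The most frequent set was Grik1, Grik2, Grik3 and Grik5 without Grik4, in 43 kept cells (39.4%), of which 31 lay in L4 and 12 in L5. The set of Grik1, Grik2 and Grik5 followed with 17 cells (15.6%), of which 7 were in S1 L5. No read of any subunit was found in 2 cells, both in S1 L4. A partner subunit (Grik4 or Grik5) was read in 84 cells, and 83 of them also had a read of Grik1, Grik2 or Grik3, as did all but 3 of the kept cells.

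Levels of the subunits hardly moved together across cells. Pearson's r of log2(CPM + 1) lay between -0.10 and 0.15 for the 10 pairs over all kept cells (Grik1 with Grik2 0.15, Grik2 with Grik5 0.14, Grik1 with Grik3 0.08), and between -0.19 and 0.22 after the mean of each group and date was taken out. These values are a description, since cells share dates and many are at 0. Spearman's rho with the total count of the cell lay between -0.08 for Grik2 and 0.11 for Grik5.

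The genes whose level ran most like that of a subunit over the kept cells, among 9989 genes, were Gda (r = 0.44), Ncald (0.42) and Fnbp1l (0.40) for Grik1. For Grik2 they were Ankrd17 (0.47), Cep170 (0.43) and Mgea5 (0.42). For Grik3 they were 9530059O14Rik (0.39), U2surp (0.38) and B3gat3 (0.38), and for Grik5 Hif1a (0.42), Arcn1 (0.42) and Aff4 (0.39). The median r over all genes was between 0.03 and 0.07, and these are the highest of many values over cells that share libraries and dates.

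L4 cells were also divided by whether they had a read of a marker gene. The Grik2 ranges of the 2 parts overlapped each time, as by Calb2 in V1 L4 (4.71 to 9.92 with a read, 0 to 9.97 without). Grik2 averaged 7.87 in the 20 V1 L4 cells with a Calb2 read and 6.25 in the 22 without, both above the S1 L4 mean. By Hpse, Grik2 averaged 6.33 in the 22 V1 L4 cells with a read and 7.78 in the 20 without. In S1 L4 it averaged 3.70 in the 23 cells with an Hpse read and 3.82 in the 11 without. By Pvalb, Grik2 averaged 4.59 in the 18 S1 L4 cells with a read and 2.78 in the 16 without. By Calb1 it averaged 3.88 in 14 and 3.64 in 20 of these cells.

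Other genes that serve kainate receptors were tallied from a list of 14: the auxiliary subunits Neto1 and Neto2, the PDZ scaffolds Pick1, Grip1, Grip2, Dlg1 and Dlg4, the secreted partners C1ql2 and C1ql3, the turnover factors Klhl17 and Cul3, and the editing enzymes Adar and Adarb1 with their inactive relative Adarb2. Between areas in L4, 11 passed the filter and 0 were called, beside the 3.20% of all genes. Their median difference was 0.00, against 0.01 over all genes tested. Neto1 was read in 95.2% of the V1 cells and 94.1% of the S1 cells of L4 and differed by 0.11, and Neto2 differed by 0.00, both smaller than the SD over dates (1.52 and 2.09). Adarb1, the enzyme known to recode the Q/R site printed above, differed by 0.14 (SD 1.63).

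In L5, 2 of the 10 genes that passed were called, both higher in S1, beside 12.7% of all genes. Calls over all genes also leaned that way, with 547 higher and 266 lower in S1. Klhl17, a ubiquitin ligase adaptor known to bind GluK2, had means of 2.15 in V1 and 4.13 in S1 (difference 1.98, SD over dates 0.76, higher in 4 of 4 dates). Grip1 had means of 4.00 and 5.16 (difference 1.16, SD 0.69). At least 32 counts were found in 10 S1 and 4 V1 cells for Klhl17, and in 11 and 9 for Grip1. Both genes thus passed the filter of 10 cells by S1 alone, the area where they were higher. Between layers Grip1 was called lower in L5 in both areas, with differences of -1.64 in V1 (1 of 8 genes that passed, beside 26.8%) and -1.11 in S1 (1 of 10, beside 16.9%). C1ql2 had 0 counts in all kept cells, and C1ql3 was read in 6 of them.

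**Figure D5:**
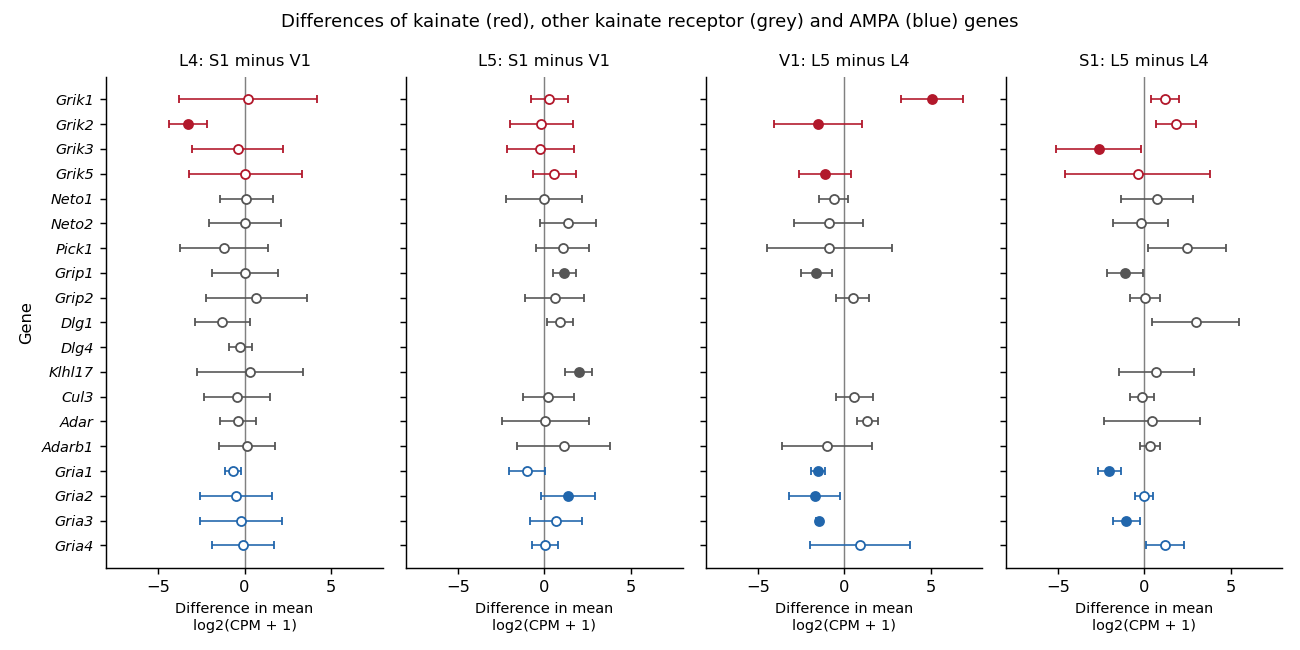
Difference in mean log2(CPM + 1) (x axis) of the kainate subunits (red), other kainate receptor genes (grey) and AMPA subunits (blue) that passed the filter (y axis), in 4 panels for S1 minus V1 in L4 and L5 and L5 minus L4 in V1 and S1. Bars are the SD over label dates and filled points are genes called; in L4 Grik2, at -3.28, is the only filled point between areas.

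AMPA receptor subunits, the main fast glutamate receptors of these neurons, were read at higher levels per length. The summed RPKM of Gria1 to Gria4 exceeded that of Grik1 to Grik5 in all but 1 of the kept cells. Kainate subunits made up a median of 11.7% of the 2 sums in V1 L4 cells and 24.4% in those of V1 L5, compared with 7.64% and 17.7% for the same layers of S1. The L4 values include cells of every date, so the layers are not matched by date here. The share also moves with the AMPA sum, whose median was 707 RPKM in V1 L4 and 457 RPKM in V1 L5, and 617 and 547 RPKM in S1. Of the 4 AMPA genes, 0 were called between areas in L4 (beside 3.20% of all genes), where Gria1 was lower in S1 in 5 of 5 dates with a difference of -0.66, under the limit of 1 in size. Gria1 and Gria3 were called lower in L5 in both areas (Gria1 differences -1.55 in V1 and -2.03 in S1), as was Gria2 in V1 (-1.71), which makes 3 of 4 in V1 beside 26.8% of all genes and 2 of 4 in S1 beside 16.9%. Within L5, Gria2 was called higher in S1 than in V1 (1.34), as 1 of 4 beside 12.7%.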

How the data were processed

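Alignment by the authors used STAR 2.4.2a and the mm10 genome, and the table they deposited gives raw counts, 1 column per cell. They also deposited RPKM values computed from RefSeq gene models. Neither table uses molecular identifiers, so intervals cover counting error only, and the Poisson intervals only that of reads, not of molecules. Entries that share a symbol were summed (24490 entries, 23998 symbols). The RPKM values of the 5 subunits matched the counts within 2.58%.

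Area and layer were taken from the labels, as was the date, which is assumed to be that of the recording; the study names fewer mice than dates, so dates are not separate animals. Levels are log2(CPM + 1). A difference is that of group means over kept cells, and was repeated within each date with at least 2 cells of each group. A gene was compared if 10 or more of the cells concerned held 32 or more counts of it, and was called at a difference of at least 1 with 1 sign in all such dates. The genes named are the 5 subunits, the genes of the 2 lists and, per subunit, the 3 genes with the highest r. Members and lists were chosen with earlier results of these data known. Of the lists for other cells, the excitatory neuron list summed to between 5.81 and 14.5 CPM by group, the astrocyte list to between 129 and 365 CPM and the oligodendrocyte precursor list to between 4.18 and 33.7 CPM. Thinning used random seed 1. Gene models are GENCODE M21 on GRCm38, the build of mm10. The functions were tested on simulated data. Computation used SciPy 1.17.1, pandas 2.3.3 and NumPy 2.4.6 in Python 3.11.15, with plots by matplotlib 3.10.9. In R 4.3.3, edgeR 4.0.16 and DESeq2 1.42.0 gave alternative library sizes.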

Additional observations from a re-analysis of the deposited data

Results flagged for a closer look

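Reads of the subunits also appeared in cells that no comparison used. In the 4 cells without an Sst read, all from S1 L4, pooled Grik1 stood at 127.1 CPM (reads in 2 of 4 cells), Grik2 at 54.1 CPM (3 of 4) and Grik5 at 19.2 CPM (3 of 4), where a count of 0 would allow 0.545 CPM. In the 1 V1 L5 cell left out for more Slc17a7 than Gad1 plus Gad2 counts, Grik1 stood at 153.995 CPM, Grik2 at 375 CPM, Grik3 at 138.2 CPM, Grik4 at 224 CPM and Grik5 at 100.03 CPM, where a count of 0 would allow 3.95 CPM. That cell had all 5 subunits and more Grik4 than any kept cell, whose highest value was 60.0 CPM.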

How the results depend on the processing

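The lower Grik2 in S1 L4 kept its sign and met the rule under all alternatives run, and moved beyond the SD over dates with a pseudocount of 10 (-2.18); leaving out each date in turn gave -3.73 to -3.03. In that comparison Grik1 was 1.90 and Grik3 1.45 in label dates 1 to 6, against -1.38 and -2.11 in dates 7 to 9, each meeting the rule there. The number of genes called between areas in L4 was 77 with a pseudocount of 10, 195 on RPKM values, 452 among cells with at least 4000 detected genes, 1123 in dates 1 to 6, 1960 in dates 7 to 9 and 51 at a difference of at least 2. In L5 it was 382 with a pseudocount of 10, 439 for medians and 245 at a difference of at least 2, and Grik3 was -3.63 for medians. For the layers in V1 it was 719 with a pseudocount of 10, 785 with L4 cells of every date, 2038 with any count and 465 at a difference of at least 2, and in S1 519 with a pseudocount of 10 and 344 at a difference of at least 2. In V1, Grik1 was 8.80 for medians and 2.63 with L4 cells of every date, and Grik2 -0.93 with the latter. Grik5 in V1 no longer met the rule with a pseudocount of 10 (-0.81), thinned (-0.99), with at least 4000 detected genes (-1.02), in all cells with at least 1500 detected genes (-0.95) or with L4 cells of every date (-0.30), and turned to 0.093 without date 5. Without single dates Grik2 ranged from -2.19 to -0.51 and Grik5 from -1.97 to 0.093 in V1. In S1, Grik3 failed the rule with a pseudocount of 10 (-1.36), on RPKM values (-1.44) and in all cells with at least 1500 detected genes (-1.71), and was -6.28 for medians. Grik1 in S1 met it for medians (1.70), with at least 4000 detected genes (1.21) and in all cells with at least 1500 (1.48), and was 2.71 with L4 cells of every date; Grik2 averaged 0.30 over the within-date differences. Without single dates these S1 differences ranged from 0.60 to 1.62 for Grik1, from 0.98 to 2.74 for Grik2 and from -1.27 to 1.85 for Grik5. With at least 32 counts in place of 1, detection fell outside its interval for Grik1 (59.5%) and Grik5 (52.4%) in V1 L4, Grik5 in S1 L4 (52.9%), Grik3 (23.5%) and Grik5 (35.3%) in V1 L5 and Grik5 in S1 L5 (43.8%); Grik4 in S1 L4 was at 0% with at least 5 or 32 counts. Shares of raw counts gave 17.8% for Grik3 in V1 L4 and 58.5% and 4.13% for Grik1 and Grik3 in V1 L5. Shares of the summed RPKM gave 57.5% for Grik1 in S1 L4 and 75.3%, 19.98% and 3.26% for Grik1, Grik2 and Grik5 in V1 L5, and cells with at least 20 counts over the subunits gave 66.7% and 26.95% for Grik1 and Grik2 there. The causes were not tested. The other 473 of 536 values stayed within the limit set for their kind. For differences this was the SD over dates and the side of the rule, and for shares the SD over dates. For detection it was the interval, and for numbers of genes called a fixed factor around the main number. The choice of cells by oligodendrocyte reads was made after seeing the data. By replicate number no paired analysis was possible because these numbers only count cells, whereas pairing by label date gave a mean difference of -3.89 for Grik2 in L4. With 1 sample per area and layer, and 2 to 5 dates per difference, the spread between animals is unknown. A gene read in no cell may lie under the depth of these libraries.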
